A study of Xenopus laevis with 8 samples.

Results

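The head fragments of Xenopus laevis (African clawed frog) embryos were described through the genes that gave the highest signal in them and the genes that differed most between individual heads. Of 15491 probe sets left after 120 control probe sets were removed from an Affymetrix array of this species, the 300 with the highest mean log2 signal over 4 head arrays were taken as abundant. Among the 6803 probe sets with a mean linear signal of 500 or more in heads, here called bright, the 100 with the highest SD of log2 signal over the 3 single-embryo heads were taken as variable. Only the probe set of prmt1.L was in both sets. Signal in the heads chose these members, so their levels and their SDs over heads are descriptions and carry no test. The 300 held 219 probe sets with 1 gene symbol, for 195 different symbols, 21 with several symbols and 60 not listed in the array annotation. The 100 held 60 with 1 symbol, for 58 different symbols, 2 with several and 38 not listed. The last probe set inside the 300 belonged to parp1.L at a mean log2 signal of 13.43, and the first outside to sec13.S at 13.42. The hundredth SD was 1.12 on an unlisted probe set and the next was 1.12 for aldoa.S.

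Embryos without any treatment were cut across at stage 18, a late neurula, and RNA was taken from the front and the back fragment. Head replicates 1, 2 and 3 each came from 1 embryo and replicate 4 from a pool of heads, and the 4 tail arrays were laid out in the same way. Each array received cRNA made from 100 ng of total RNA by 2 cycles of amplification. Strain, clutch and the number of embryos per pool are not given in the labels, nor is it stated that equal replicate numbers mark fragments of 1 embryo. The p-values therefore measure only how far these arrays differ, which may be partly technical.

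At the late neurula stage the head holds the rudiments of forebrain, eyes, neural crest and placodes, with a skin-like epidermis. That epidermis contains mucus-secreting cells, multiciliated cells and ionocytes. Its front end carries the cement gland, a sticky organ by which the hatched tadpole attaches, and the hatching gland, which releases proteases that open the egg membranes. In a fragment that mixes all these tissues, fewer cells of a type and less RNA per cell cannot be told apart. Many genes of this species exist as an L and an S copy, and a probe set of 1 copy may also bind the other, so the copy named for a probe set is uncertain.

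The fragments carried head markers. The eye and forebrain gene pax6.L measured 11.43, 11.62 and 11.00 in head replicates 1 to 3 and 11.21 in the pool, against 7.91, 8.39, 8.35 and 8.90 in tail replicates 1 to 4. The anterior gene six3.L ran from 9.89 to 10.21 in heads and from 7.71 to 8.82 in tails. The head and tail ranges of both genes lay apart. The adjusted p was 4.5e-05 for pax6.L and 0.00224 for six3.L (limma, Benjamini-Hochberg adjustment over 9295 probe sets). Each marker named here was read on its probe set with the highest head mean, which tilts its p-value to heads. Of 8 forebrain and eye probe sets tested, 6 were called higher in heads, against 2% of all tested. Another 1 was called higher in tails, against 2.61%. The neural plate gene sox2.L ran from 8.99 to 9.59 in heads and from 6.53 to 7.40 in tails, with an adjusted p of 0.00054. The forebrain gene otx2.L ran from 8.44 to 9.12 in heads and from 3.31 to 6.07 in tails, and lay below the filter for low values. Of the trunk markers, tbxt.S, a gene of notochord and tailbud, ran from 7.54 to 8.02 in heads and was higher in tails, at 8.80 to 9.97, with an adjusted p of 0.00931. The muscle regulator myod1.S averaged 8.91 ± 0.79 (SD, n = 4) in heads, where it reached 9.88, and its 4 tail values ran from 8.93 to 10.92, so the groups overlapped.

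Median signals of the 4 heads lay between 362 and 390 intensity units. Head replicate 1 stood apart from the other heads. Its log2 signals over the bright probe sets correlated with theirs at 0.869 to 0.906, while the other heads correlated with each other at 0.926 to 0.937. Control probe sets at the 5′ end of beta-actin read 43.0 intensity units in head replicate 1 and from 348 to 544 in the other heads. The ratio of 3′ to 5′ beta-actin signal was 193 in head replicate 1 and ran from 14.0 to 25.0 in the others, while the same ratio for GAPDH was 70.2 against 72.5 to 132. The 3′ control of the first alpha-actin gene on the array read 6358 in head replicate 1 and from 20446 to 37227 in the other heads. It was likewise lowest in tail replicate 1 among tails, at 8422. The ratio of 3′ to 5′ signal for that gene was 16.6 in head replicate 1, the lowest head, and 38.4 to 142 in the others. For another alpha-actin gene on the array the ratio was 176 against 172 to 298. The part of RNA quality in the values of head replicate 1 was not tested.

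The 300 abundant probe sets made up 1.94% of the probe sets and held between 29.3% and 31.7% of the summed linear signal of a head array. Mean log2 signal fell from 16.18 at rank 1 to 15.33 at rank 20, 14.49 at rank 100 and 13.43 at rank 300, which is from 74584 to 11451 intensity units. A MAS5 signal also depends on how strongly the probes bind, so a rank describes the array and does not order genes by amount of RNA. Of the 219 probe sets with 1 symbol, 144 fell in 1 or more of 26 gene lists and 75 in none. Ribosomal protein genes held 41 of the 300, translation factors 16, histone and chromatin-binding genes 16, keratins and epithelial junction genes 15, and actin and tubulin cytoskeleton genes 14. Genes of RNA-binding hnRNP and splicing proteins held 12 and chaperones 8. Glycolysis and creatine genes, respiratory chain genes, and cell cycle genes held 4 each. By share of the list, 39.8% of 103 ribosomal probe sets reached the 300, 33.3% of only 6 cement gland, 27.1% of 59 chromatin, 25.5% of 55 cytoskeleton, 23.4% of 64 keratin and 18.2% of 88 translation factor probe sets. The hatching gland list gave 14.3% of 7 and the hnRNP and splicing list 10.3% of 117, and the shares of the other lists ran from 0 to 9.76%.

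The ribosomal group of 41 held 22 probe sets of 17 small-subunit genes and 18 probe sets of 17 large-subunit genes, and 1 other. Ribosomal proteins build the particle that makes all cellular protein. The large-subunit gene rpl35a.S ranked 4th of all probe sets, with log2 signals of 15.71, 16.23 and 16.15 in head replicates 1 to 3 and 15.98 in the pool. The small-subunit gene rps13.L ranked 7th with 15.91, 16.00, 15.85 and 15.71 in the same order. The spread of rps13.L over the single heads, an SD of 0.071, was the lowest of the 41. The large-subunit gene rpl38.L was lowest in head replicate 1, at 14.68, against 15.34, 15.62 and 15.48 in the other heads. The limma test of heads against tails called 0 of the 41, with 0 at an unadjusted p under 0.05, where it called 4.62% of all 9295 probe sets tested. Of the 41, 35 were also among the 300 highest in tails. Their median SD over single heads was 0.338, above the 0.244 of all 300.

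Translation factors, which carry the ribosome through its cycle, were led by eef1a1.S, the factor that delivers aminoacyl-tRNA. It ranked 8th and measured 15.86, 15.80 and 15.92 in head replicates 1 to 3 and 15.79 in the pool, a range within which no head stood out. The translocation factor eef2.1.L measured 15.14, 15.17, 14.90 and 14.96 in the same order. The elongation factor eif5a.L was the most spread of the 16, at 14.05, 15.28 and 14.70 in the single heads and 15.54 in the pool. Head replicate 1 was its lowest head, and its 4 tails lay between 14.56 and 15.05, inside the head range. The brightest probe set with a symbol in no list was that of ssr2.S, a subunit of the complex that helps nascent proteins into the endoplasmic reticulum, at rank 31 with head values from 15.12 to 15.22.

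Keratins form the intermediate filaments of the epidermis, and krt70.S gave 3 of the 12 highest probe sets of the heads. Its highest probe set, at rank 3, measured 16.49, 16.14 and 15.97 in head replicates 1 to 3 and 15.90 in the pool, and from 16.16 to 16.54 in tails. The groups overlapped, and all 15 keratin and junction probe sets of the 300 were also among the 300 highest of the tails. The simple-epithelium keratin krt7.L ran from 14.88 to 15.29 in heads and from 15.08 to 15.38 in tails. The epidermal keratin krt12.4.S ran from 13.99 to 15.00 in heads and from 13.94 to 14.89 in tails. The keratin krt8.1.S was lower in head replicate 2, at 14.30, than in the other heads, at 14.80 to 14.84. Between heads and tails, limma called 0 of these 15, with 0 at an unadjusted p under 0.05, where it called 4.62% of all probe sets tested.

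Genes of secreting and transporting skin cells held 2 of the 300, out of 37 probe sets, or 5.41%. Ciliated cell genes held 1, out of 33, or 3.03%. All probe sets with 1 symbol gave 2.35%, so most members of these lists lay outside the 300. The lectin gene itln1.L, made by secretory cells of the embryonic epidermis, ranked 19th and had nearly the same signal in every head, at 15.38, 15.34 and 15.37 in the single heads and 15.35 in the pool. Its tails ran from 15.37 to 15.99 and overlapped the heads at the lower end. The proton pump subunit atp6v0c.L measured 13.34, 13.91 and 14.17 in head replicates 1 to 3 and 14.31 in the pool. The beta-tubulin gene tubb4b.L, the only ciliated cell gene of the 300, measured 15.16, 15.33, 14.72 and 14.64 in the same order. Other cytoskeleton genes had a narrower or like range, with the alpha-tubulin tuba5.S at 14.53 to 15.10 and the actin actg1.L at 14.49 to 15.07 in heads. Neural beta-tubulin, tubb2b.S, lay outside the 300 at rank 1288 with head values from 11.44 to 11.95.

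**Figure D1:**
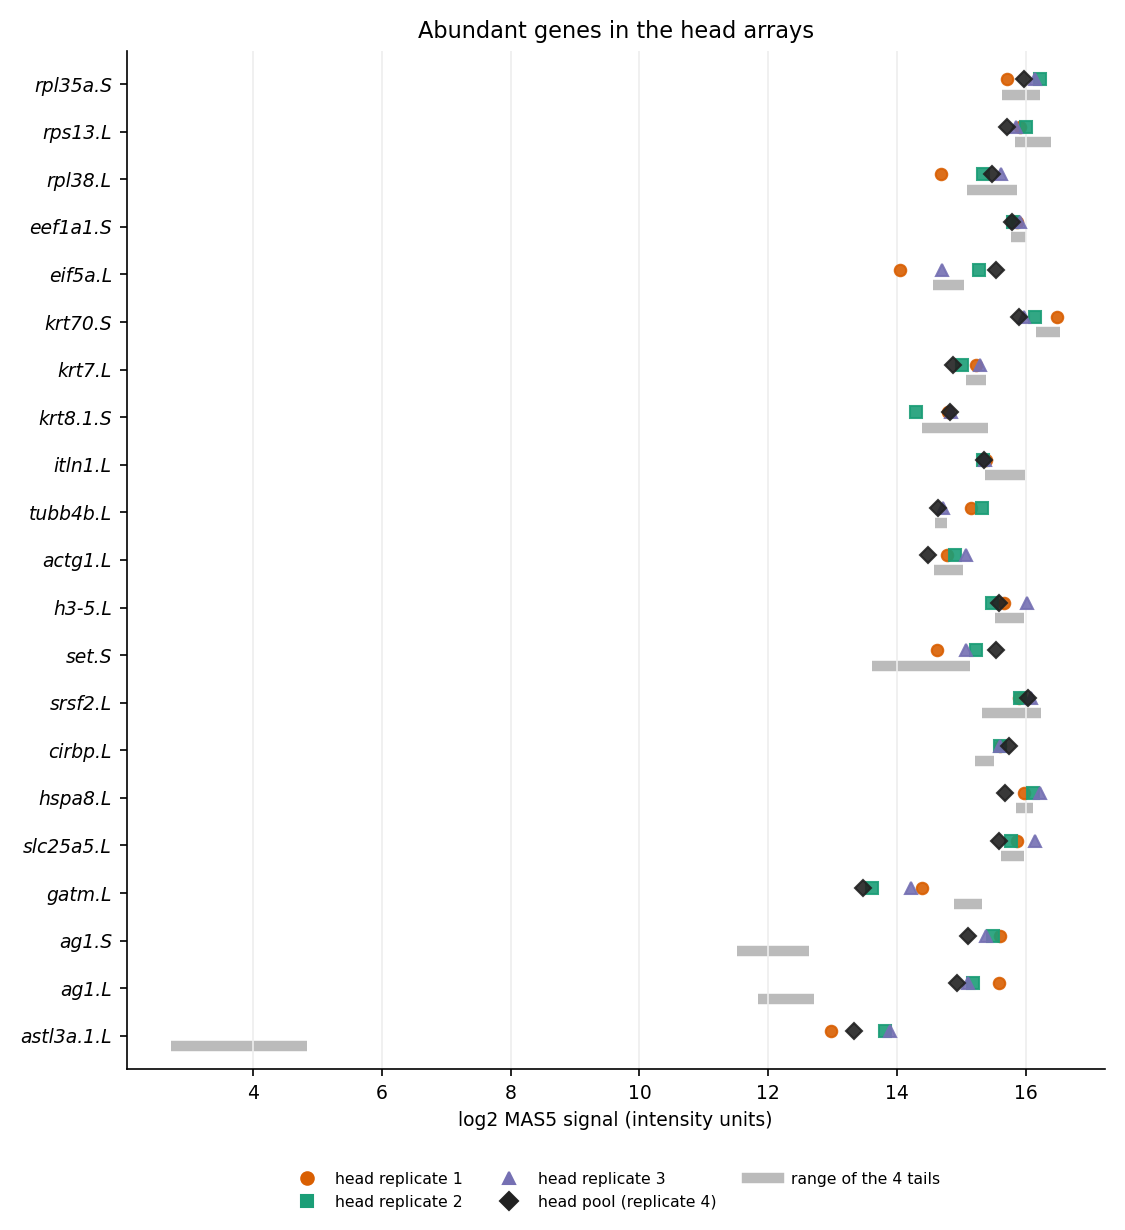
Log2 MAS5 signal (x axis, intensity units) of 21 abundant genes (y axis) in the 4 head arrays, as 1 symbol per array, with the range of the 4 tail arrays as a grey bar under them. Head and tail ranges overlapped or lay close for most genes, while the tail bars of ag1.S (11.52 to 12.63), ag1.L and astl3a.1.L lay far to the left of their heads.

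The cement gland gave 2 of the 300. Its gene ag1 encodes a secreted protein of the disulfide isomerase family. The probe set of ag1.S ranked 17th in heads, with 15.61, 15.50 and 15.39 in head replicates 1 to 3 and 15.10 in the pool, and measured 12.63, 11.84, 11.52 and 11.75 in tail replicates 1 to 4. Every head thus lay above every tail. The probe set of ag1.L ranked 28th, with 15.58, 15.18 and 15.10 in the single heads and 14.94 in the pool, against 11.85 to 12.71 in tails. In both copies head replicate 1 was the highest head and tail replicate 1 the highest tail. The head mean exceeded the tail mean by 3.47 on the log2 scale for ag1.S (SE 0.24, adjusted p = 8.24e-06) and by 3.00 for ag1.L (SE 0.22, adjusted p = 1.25e-05). Signal in these same heads chose both probe sets, so the differences and their p-values are tilted to heads. The related gene agr2.L fell just outside the 300 at rank 316, with 12.95 to 13.85 in heads and 7.10 to 9.14 in tails.

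The hatching gland gave 1 of the 300, the secreted astacin protease gene astl3a.1.L at rank 269. It measured 12.98, 13.82 and 13.89 in head replicates 1 to 3 and 13.34 in the pool, and 4.57, 4.84, 3.62 and 2.72 in tail replicates 1 to 4. All tail values lay below the 20th percentile of all signals, 6.54 on the log2 scale. With low values raised to that percentile, the heads were higher by 6.96 on the log2 scale, and the adjusted p without that step was 4.04e-07. This probe set too was chosen on signal in these heads, which tilts the difference and its p-value to heads.

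The heads shared most of their abundant probe sets with the tails. Of the 300, 256 or 85.3% were also among the 300 highest in tails, and 18 of the 20 highest in heads were among the 20 highest in tails. Only 9 ranked past 500 in tails and 2 past 1000, which were ag1.S at tail rank 1172 and astl3a.1.L at tail rank 15161. Between heads and tails limma called 5 of the 300, or 1.67%, against 4.62% of all 9295 probe sets tested. Both ag1 copies and astl3a.1.L were higher in heads, where the background was 2% of probe sets. The creatine synthesis gene gatm.L and 1 unlisted probe set were higher in tails, where the background was 2.61%. The choice on head signal used the same head arrays, so nothing is read from the difference between these shares. Leaving out 1 array at a time left between 3 and 6 calls, and the lowest count came without tail replicate 3.

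**Figure D2:**
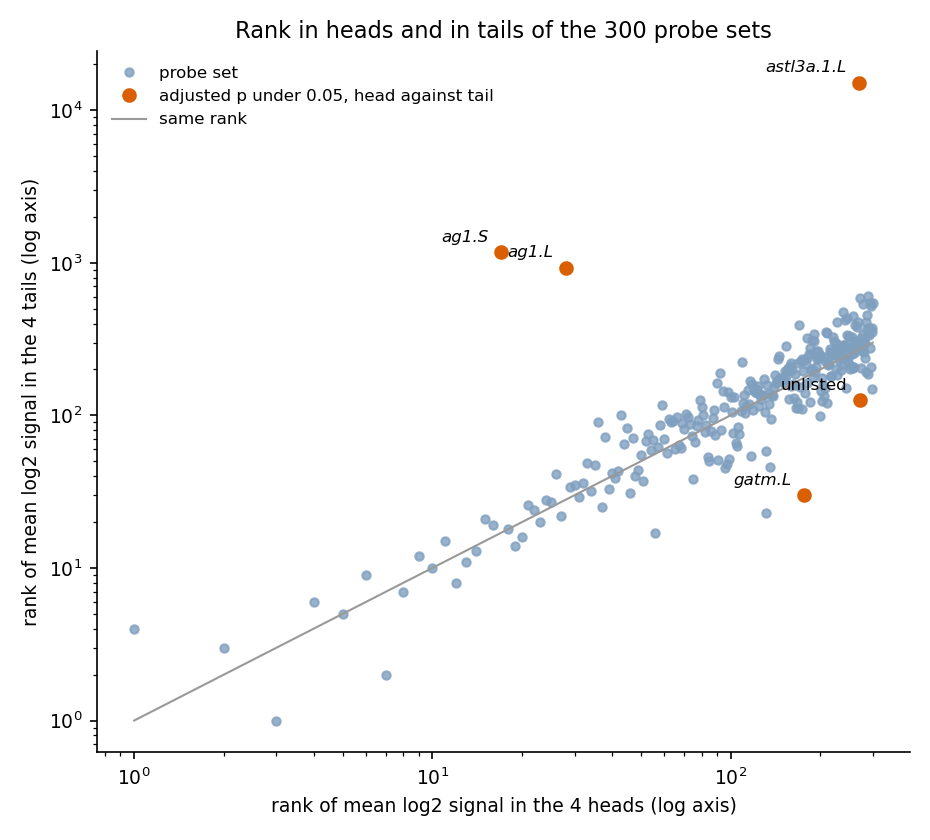
Rank of the mean log2 signal in the 4 heads (x axis, log scale) against that in the 4 tails (y axis, log scale) for the 300 abundant probe sets, with 1 as the brightest. Most points lie along the line of the same rank, and the 5 called between heads and tails are marked, with astl3a.1.L at head rank 269 and tail rank 15161.

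Glycolysis and creatine genes held 4 of the 300, out of 41 probe sets, or 9.76%. Respiratory chain and ATP synthase genes held 4, out of 85, or 4.71%, where all probe sets with 1 symbol gave 2.35%. The mitochondrial ADP/ATP carrier slc25a5.L ranked 9th with 15.86, 15.78 and 16.14 in head replicates 1 to 3 and 15.58 in the pool. The ATP synthase subunit atp5f1b.S ran from 14.15 to 14.37 in heads. The amidinotransferase gatm.L, which makes the creatine precursor, measured 14.39, 13.61, 14.22 and 13.48 in head replicates 1 to 4 and 14.98, 15.33, 15.23 and 14.89 in tail replicates 1 to 4. Every head lay under every tail, the head mean minus the tail mean was -1.19 on the log2 scale (SE 0.23, adjusted p = 0.0114), and the adjusted p was 0.0522 without tail replicate 3. The glycolytic gene eno1.S ran from 13.65 to 14.09 in heads. The muscle-type aldolase aldoa.L measured 12.27 in head replicate 1 and 14.27, 14.06 and 14.35 in the others. In tails, aldoa.L was likewise lowest in replicate 1, at 12.31 against 13.52 to 13.70.

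Chromatin and RNA-processing genes were well represented. The histone H3 gene h3-5.L measured 15.67, 15.48 and 16.02 in head replicates 1 to 3 and 15.59 in the pool, and h3c13.S ran from 14.88 to 15.07. The histone chaperone gene set.S was lowest in head replicate 1, at 14.62, against 15.23, 15.07 and 15.54 in the others. The cold-inducible RNA-binding protein gene cirbp.L measured 15.60 in each single head and 15.75 in the pool. Its SD over the single heads was the lowest of the 219 abundant probe sets with 1 symbol. Over all 4 heads its SD was 0.075, above the 0.018 of itln1.L. The splicing factor srsf2.L ranked 6th at 15.90, 15.92, 16.08 and 16.04, and the spliceosomal Sm protein gene snrpb.S ran from 14.87 to 15.38. The chaperone genes were led by hspa8.L, the constitutive 70 kDa heat shock protein, at 15.97, 16.12, 16.22 and 15.68. The chaperonin subunit cct5.S ran from 14.75 to 15.56. Of the stress genes, the heat shock family member hspa1l.S ran from 15.76 to 15.87 and the heme oxygenase hmox1.L from 13.24 to 13.89. Of the cell cycle genes, the nuclear transport GTPase ran.S ran from 14.24 to 14.78 and the cyclin ccnd1.L from 13.23 to 13.94.

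Muscle and endoderm gave 1 member each. The muscle calcium pump gene atp2a1.S measured 12.46, 14.25 and 14.38 in head replicates 1 to 3 and 15.09 in the pool, with replicate 1 lowest. Its tails showed the same order, with 12.51 in tail replicate 1 and 14.16 to 14.54 in the others. The protease inhibitor gene a2m.S ran from 13.03 to 13.80 in heads and from 13.87 to 14.03 in tails, which lay above every head without passing the test (adjusted p = 0.274). No member of the lists for forebrain and eye, midbrain and hindbrain, neural plate, neural crest and placodes, notochord, heart and blood, germ plasm or tailbud reached the 300. The closest neural gene, sox11.S, ranked 368th with 12.46, 13.31, 13.22 and 14.01 in head replicates 1 to 4 and 9.64, 10.85, 11.37 and 12.48 in tails, where the highest tail just exceeded the lowest head. Its head mean was higher by 2.16 on the log2 scale (SE 0.50, adjusted p = 0.0308), and the adjusted p lay between 0.0717 and 0.0944 when head replicate 2, 3 or 4 or tail replicate 2 or 3 was left out. The forebrain gene otx1.L ranked 1222nd with 11.58 to 12.36 in heads and 7.49 to 9.51 in tails (adjusted p = 0.000744). Both sox11.S and otx1.L were named as the brightest of their lists in heads, which tilts their p-values to heads. The neural crest and placode gene id3.S ranked 842nd with a head mean of 12.34 ± 0.09 (SD, n = 4) against 12.21 ± 0.16 (SD, n = 4) for the tails, and the groups overlapped.

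Signal over the single heads was tighter in the abundant set than among bright probe sets. The median SD was 0.244 in the 300 and 0.299 in the 6803, and 158 of the 300, or 52.7%, had an SD under 0.25, against 38.6%. The SD over single heads reached 1 or more for 4 of the 300, which were prmt1.L, atp2a1.S, aldoa.L and aldoa.S. In all 4, head replicate 1 was the lowest head.

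Several lists moved together between the single heads, and the lists named here were picked from the 26 after their values were seen. Ribosomal protein genes were highest in head replicate 2 in 74 of 87 bright probe sets, or 85.1%, where all bright probe sets with 1 symbol gave 35.2%. They were lowest in head replicate 1 in 63 of the 87, against 39.0% overall. With head replicate 1 left out, head replicate 2 exceeded head replicate 3 in 75 of the 87, against 52.0% of all bright probe sets with a symbol. Respiratory chain and ATP synthase genes, which make ATP in mitochondria, were highest in head replicate 2 in 53 of 73, proteasome and ubiquitin genes in 32 of 54, and neural plate and neuronal genes in 15 of 24. Genes of multiciliated cells were highest in head replicate 1 in 16 of 19, where the overall share was 36.7%. The cement gland probe sets were highest in head replicate 1 in 6 of 6, keratin and junction genes in 26 of 44, and cell cycle and replication genes in 36 of 57. Skeletal muscle genes were lowest in head replicate 1 in 25 of 36 and highest in head replicate 3 in 23 of 36, where the overall shares were 39.0% and 28.1%. Each of these counts moved by less than 1.5 times when the arrays were quantile normalized or centred on their medians. With 1 array per embryo, a difference between embryos and a difference between preparations cannot be told apart.

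**Figure D3:**
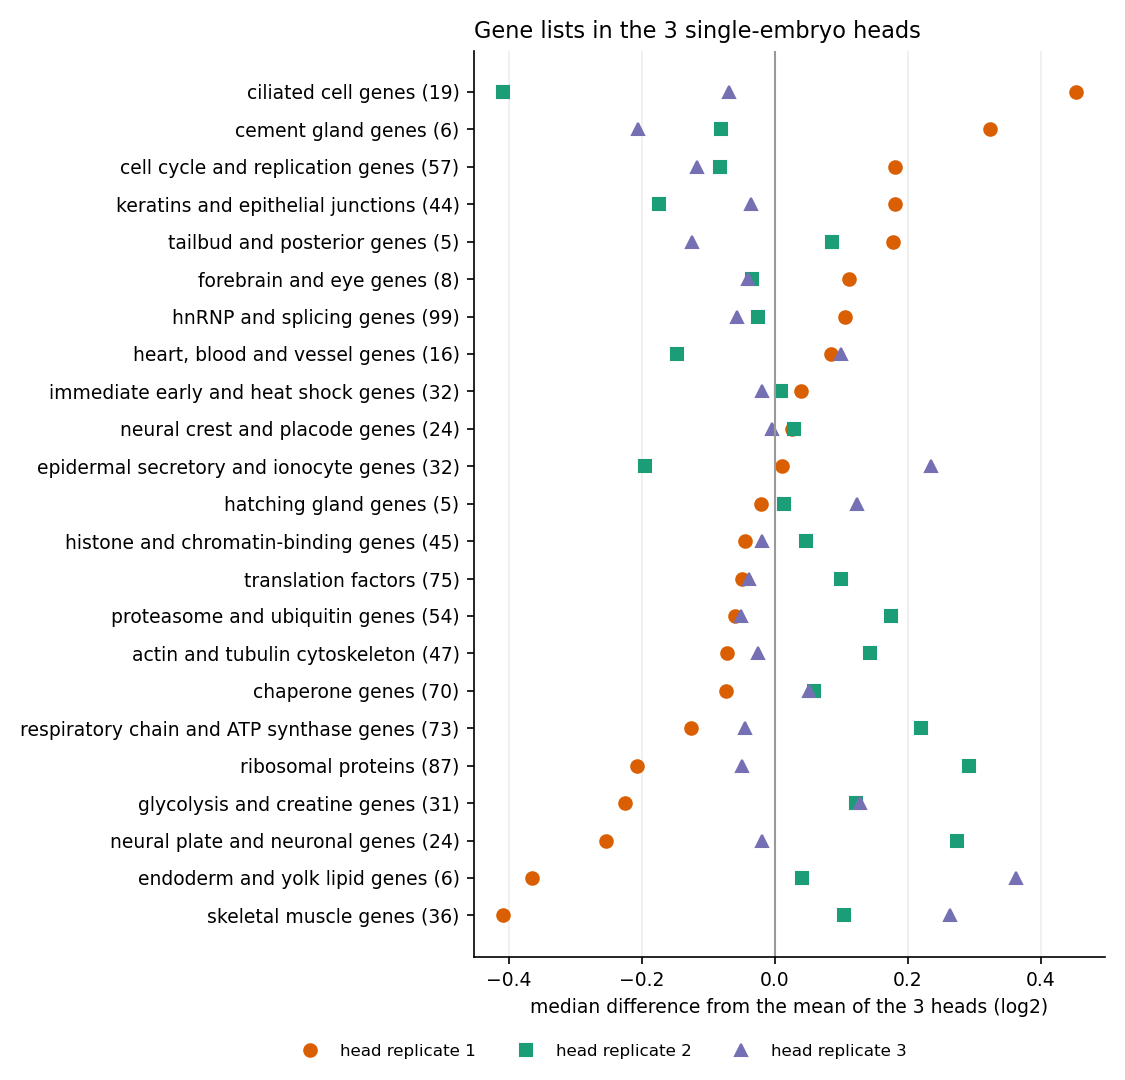
Median difference from the mean of the 3 single-embryo heads (x axis, log2) for the bright probe sets of each gene list with 5 or more of them (y axis, number in brackets). Ciliated cell and cement gland genes lay to the right in head replicate 1, skeletal muscle genes lay to the left in it, and ribosomal protein genes lay to the right in head replicate 2.

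The 100 variable probe sets had SDs from 1.12 to 3.33 over the single heads, with a median of 1.39, and the median fold between the highest and the lowest single head was 6.01. They were dimmer than the bright set as a whole, with 51 of 100 under a mean signal of 1000 against 35.7%. For 72 of the 100, head replicate 1 lay farthest from the mean of the 3, against 42.5% of the bright probe sets. Head replicate 1 was the high head in 37 and the low head in 35. Head replicate 2 was the lone head in 19, of which 14 were low, and head replicate 3 in 9, of which 8 were low. When the SD was taken over head replicates 2 and 3 alone, only 28 of the 100 were still among the 100 highest. The head pool was not used for the SD, but it entered the mean signal that set the bright probe sets. It lay nearer to the other single heads than to head replicate 1 in 24 of the 37 high probe sets, or 64.9%. Among bright probe sets with the same pattern this share was 77.4%. The pool lay nearer to the others in 35 of the 35 low probe sets, against 75.7%. A probe set low in head replicate 1 passes the minimum signal more readily when the pool is high. The size of the deviation was not matched between the sets either, so nothing is read from these shares.

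The tails, which played no part in the choice, also varied more for these members. The median SD over the 3 single tails was 0.540 in the 100 and 0.336 in the bright set. Of the 100, 24 were also among the 100 bright probe sets with the highest SD over single tails. A set of 100 is 1.47% of the bright probe sets. The members were dimmer than the bright set, and these values were not matched for signal. Where head replicate 1 was the high head, the tail mean lay nearer to it than to the other single heads in 25 of 37, against 40.1% of bright probe sets with the same pattern. Where it was the low head, this held in 11 of 35, against 52.1%. The size of the deviation was not matched here either, so nothing is read from these shares.

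**Figure D4:**
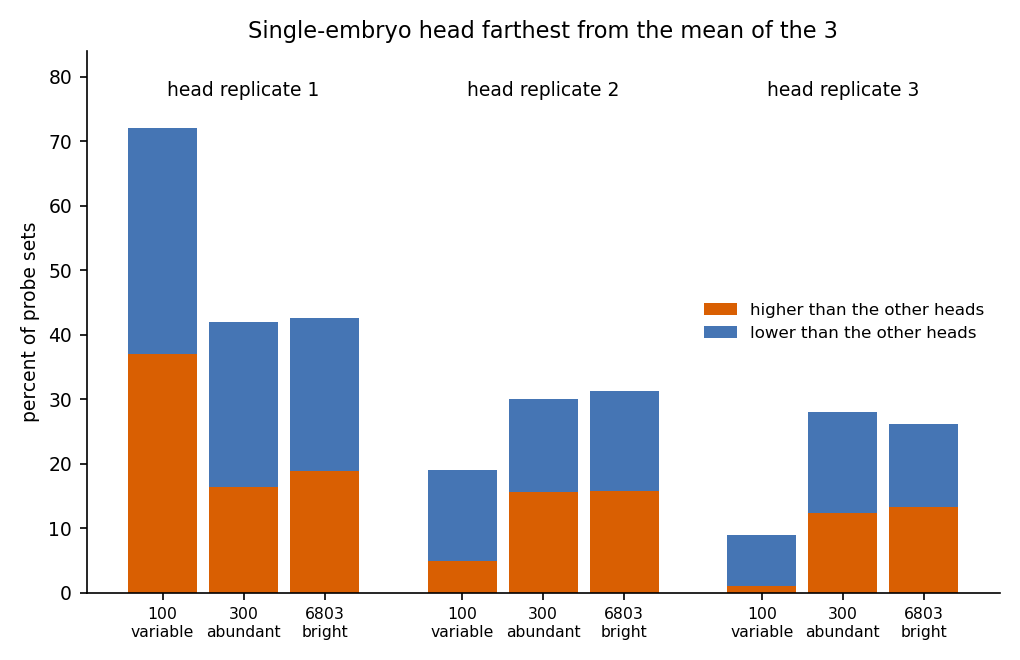
Percent of probe sets (y axis) for which each single-embryo head was the one farthest from the mean of the 3, split by whether it was higher or lower than the others, for the 100 variable, 300 abundant and 6803 bright probe sets. Head replicate 1 took 72% of the variable, 42% of the abundant and 42.5% of the bright probe sets.

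Some genes of the 100 with a higher signal in tails were also high in head replicate 1. The zinc finger transcription factor gene sp5l.S measured 14.46 in it, against 11.38, 12.37 and 12.12 in the other heads, and from 14.42 to 15.01 in tails. A second probe set of sp5l.S, also in the 100, gave 12.11 against 9.10, 10.40 and 10.45, with tails at 12.56 to 13.23. Head replicate 1 was the highest head on both probe sets. The gene wnt8a.L encodes a Wnt ligand that acts in posterior patterning. It measured 10.85 in head replicate 1 and 8.07, 9.27 and 9.60 in the others, with tails at 11.40 to 11.98. The receptor-like gene gprc5cl2.S measured 12.84 against 9.76, 9.77 and 11.16, with tails at 12.70 to 13.63. For gprc5cl2.S and the first probe set of sp5l.S, head replicate 1 lay inside the range of the tails. For wnt8a.L and the second probe set of sp5l.S it lay below that range but above the other heads. Of 5 bright tailbud and posterior probe sets, head replicate 1 was highest in 2, replicate 2 in 2 and replicate 3 in 1. Endoderm and yolk lipid genes had a median head minus tail of -1.49 on the log2 scale. Of their 6 bright probe sets, 5 were lowest in head replicate 1. Over all bright probe sets with 1 symbol, head replicate 1 was highest in 36.7% and lowest in 39.0%.

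Other genes high in head replicate 1 measured less in every tail than in that head, though not always less than in the other heads. The stress-regulated kinase gene sgk1.L measured 12.67 in head replicate 1, 10.17, 10.83 and 10.51 in the other heads and 10.72 to 12.07 in tails. The ribonucleotide reductase subunit gene rrm2.1.L, which supplies DNA building blocks, measured 11.96 against 9.22, 9.93 and 10.49, with tails at 10.11 to 11.40. The cilium-associated gene cfap36.L measured 10.89 against 8.81, 8.84 and 9.59, with tails at 9.43 to 9.75. In these genes head replicate 1 was above every other array of the series. The homeobox gene crx.S, known from photoreceptors, was likewise highest in head replicate 1, at 10.38, against 8.06, 6.47 and 9.50, and its tails, from 3.12 upward, overlapped only head replicate 3.

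The contractile genes of muscle among the 100 were low in head replicate 1. The myosin light chain gene myl4.S measured 9.97 in it against 12.30, 12.94 and 11.70 in the other heads, and from 9.23 to 10.49 in tails. The myosin heavy chain gene myh8.L measured 8.96 against 11.38, 11.42 and 11.04, with tails at 9.08 to 9.65. A second probe set of myh8.L, related to the first by its name, gave 9.39 against 10.79, 11.35 and 11.09. For both genes head replicate 1 lay with the tails or below them. The muscle phosphoglycerate mutase gene pgam2.L measured 9.41, 12.08, 10.95 and 10.82 in head replicates 1 to 4 and overlapped with tails at 9.32 to 11.58. These 3 were all the skeletal muscle probe sets of the 100, out of 36 bright ones, or 8.33%. Of all bright probe sets with 1 symbol, 1.30% were in the 100.

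Genes of other kinds were low in head replicate 1 too. The lipid carrier gene apoe.L measured 7.72 in head replicate 1 and 11.13, 10.94 and 10.18 in the other heads, with tails at 10.76 to 12.59. The acyl-CoA synthetase gene acsbg2.L measured 7.60 against 10.74, 10.70 and 9.23. The protein arginine methyltransferase gene prmt1.L, at rank 131 of the abundant set, measured 11.55 against 14.45, 15.15 and 15.70, with tails at 14.63 to 15.73. The probe set of the other copy, prmt1.S, did not share that drop in size, at 14.95 against 15.25, 15.30 and 15.13. A second prmt1.L probe set had its lowest single head in replicate 2. The proteasome subunit gene psmd6.S measured 11.75 against 13.90, 13.55 and 13.12. Its copy psmd6.L was also lowest among single heads in replicate 1, at 11.52 against 12.32 and 11.96, but the pool was lower still, at 11.32. The myeloid enzyme gene mpo.L measured 7.09 against 9.45, 9.56 and 9.03, and the calcium-binding protein gene ocm4.3.S 6.25 against 10.75, 9.49 and 8.32.

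Head replicates 2 and 3 set the spread of fewer genes. The iron carrier gene tf.L was high in head replicate 2, at 10.95, against 6.88 and 6.44 in replicates 1 and 3 and 9.03 in the pool, and its tails ran from 8.52 to 11.11. The alpha-globin gene hba2.L was low in head replicate 2, at 6.57, against 10.64, 9.80 and 9.24, and its tails ran from 5.26 to 10.14. The gene vepp1.L was lowest in head replicate 2, at 7.55, against 11.35 and 9.80 in replicates 1 and 3 and 9.01 in the pool, with the tails lower still at 5.72 to 6.70. The ionocyte proton pump gene atp6v0a4.L was low in head replicate 2, at 8.07, against 10.16, 10.47 and 9.90. The tight junction gene cldn6.2.L was lowest in head replicate 3, at 11.62, against 14.00 and 12.97 in replicates 1 and 2 and 12.32 in the pool. The scramblase gene plscr1.L was low in head replicate 3, at 7.04, against 10.22, 9.28 and 8.72.

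**Figure D5:**
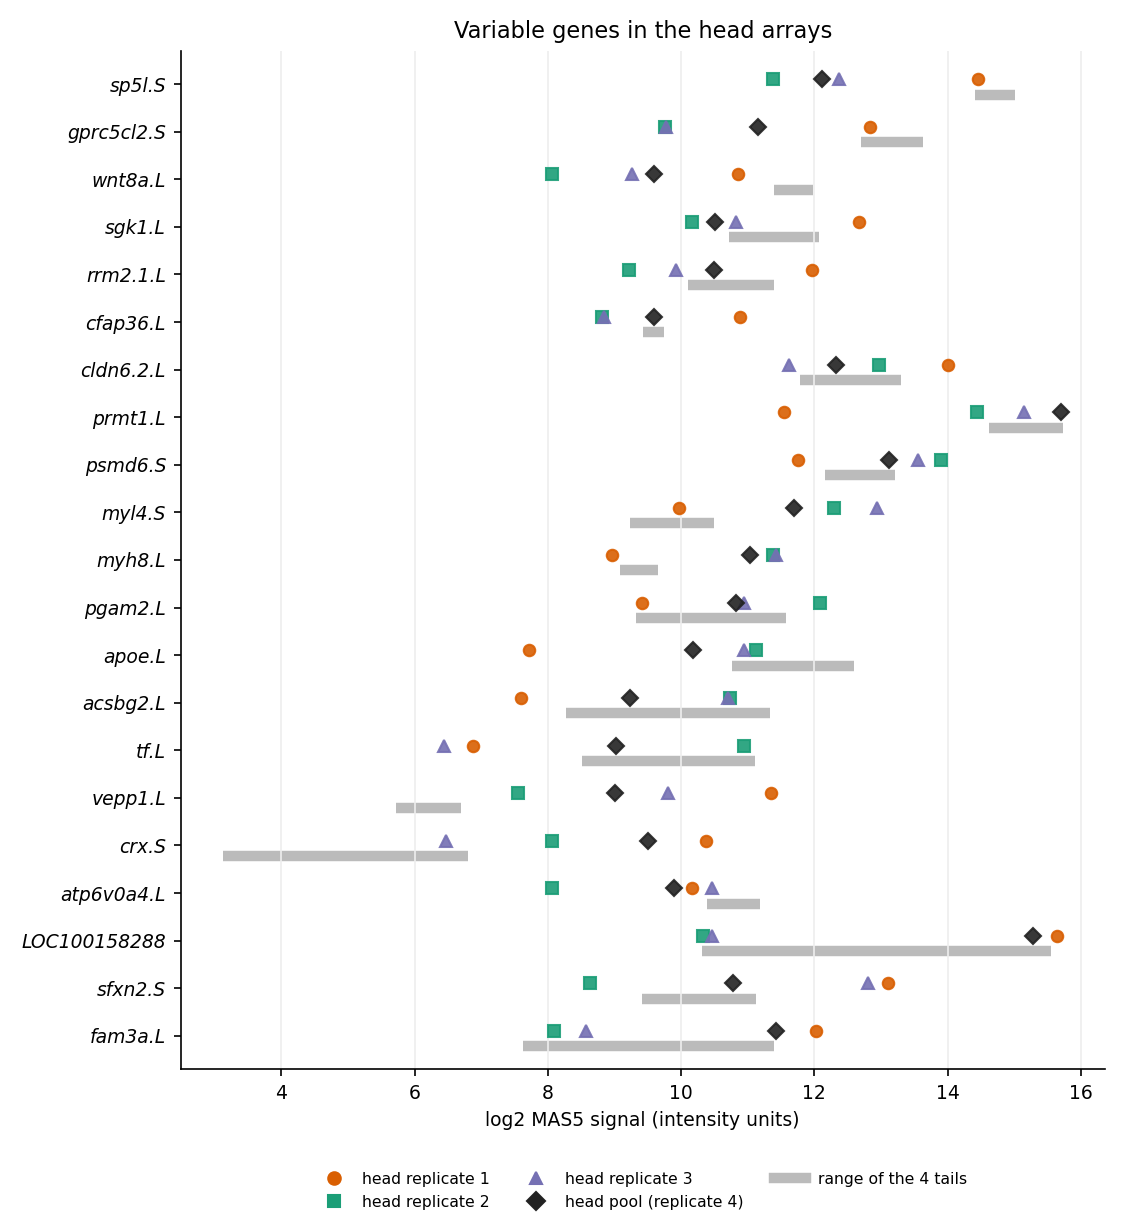
Log2 MAS5 signal (x axis, intensity units) of 21 variable genes (y axis) in the 4 head arrays, as 1 symbol per array, with the range of the 4 tail arrays as a grey bar under them. Head replicate 1 lay to the right of the other heads for sp5l.S, wnt8a.L and gprc5cl2.S, beside the tail bars, and to the left of them for myl4.S, myh8.L and apoe.L.

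A few probe sets took either a high or a low level and little between. Over the 3 single heads and 3 single tails, 23 bright probe sets parted into a high and a low set with a gap of at least 3 log2 units, and in 7 of them the heads fell on both sides. A gap of that size between single heads by itself gives an SD above the cut for the 100, so all 7 were in it. Of the 7, 6 had a symbol. The probe set of LOC100158288 measured 15.65, 10.33 and 10.46 in head replicates 1 to 3 and 15.28 in the pool, and 11.26, 15.56, 10.31 and 15.41 in tail replicates 1 to 4. Only head replicate 1 and tail replicate 2 of the single embryos were high, together with both pools. The probe set annotated polr2i.S measured 13.56, 8.02, 7.60 and 13.61 in heads and 9.47, 15.08, 14.42 and 14.58 in tails, but 11 probe sets carry that symbol, so its gene is uncertain. The mitochondrial sideroflexin gene sfxn2.S was high in head replicates 1 and 3, at 13.11 and 12.81, and measured 8.64 in replicate 2 and 10.78 in the pool. The probe set of fam3a.L was high in head replicate 1 and both pools, at 12.03, 11.43 and 11.40, and from 7.63 to 8.58 in the other 5 single-embryo arrays. The transcription factor probe set of atf4-iii was high only in head replicate 1, at 11.22, with the other single arrays at 6.87 to 7.43 and the pools at 9.10 and 9.55. Both pools were on the high side in 5 of the 7. Equally numbered heads and tails were on the same side in 9 of 21 cases.

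Other probe sets of the same genes gave a partial check of single probe sets. Of the 100, 19 had another bright probe set for the same gene or its other copy outside the 100, and these were 27 different probe sets. In 12 of the 27 the same head stood out in the same direction, and in 20 the deviation of that head had the same sign. The median SD of these other probe sets was 0.379, between the 0.299 of all bright probe sets and the 1.39 of the 100. For the sphingolipid enzyme gene sptlc1.L, head replicate 1 was the lone head on neither of its other bright probe sets outside the 100. It measured 11.95, 8.03 and 9.39 in head replicates 1 to 3 on 1 probe set of the 100. A related probe set, at 11.83, 9.84 and 9.77, is also among the 100, so its likeness is no check. Those outside the 100 measured 10.76, 10.21 and 10.93, and 10.44, 10.89 and 10.63.

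Between heads and tails, 5 of the 96 variable probe sets that passed the filter on low values were called, or 5.21%, beside 4.62% of all tested. The members were chosen for a high SD over 3 of the heads in the test, which also enters its error, so nothing is read from that share. For wnt8a.L the head mean minus the tail mean was -2.18 on the log2 scale (SE 0.45, adjusted p = 0.0185). For gprc5cl2.S it was -2.39 (SE 0.57, adjusted p = 0.0326), and for the brighter of the called probe sets of sp5l.S -2.21 (SE 0.50, adjusted p = 0.0279). For myl4.S it was 2.14 (SE 0.53, adjusted p = 0.0415), higher in heads. It was the only 1 of 42 skeletal muscle probe sets tested that was called higher in heads, against 2% of all tested. In the same list 5 were called higher in tails, against 2.61%, and the median head minus tail was -0.20. These calls changed with the arrays included, as did those over all probe sets. Without head replicate 1, 18 of 95 variable probe sets were called, and 481 in place of 429 of all 9295. Without head replicate 2, 3 or 4 the count was 2, 0 and 2, and the count over all fell to 227, 246 and 281. Without tail replicate 1, 2, 3 or 4 it was 7, 2, 1 and 3, with 508, 276, 211 and 363 over all. The adjusted p of wnt8a.L lay between 0.0519 and 0.0615 without head replicate 3 or tail replicate 2 or 3. Without head replicate 2, 3 or 4 or tail replicate 2, 3 or 4, it lay between 0.0538 and 0.0896 for sp5l.S, between 0.0619 and 0.107 for gprc5cl2.S and between 0.0823 and 0.137 for myl4.S.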

How the data were processed

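Per the submitters' processing notes, the deposited linear intensity values came from MAS5, whose version is not given in the sources used here. Each array had a mean of 1000 once 2% of values were trimmed at either end, a scaling the authors applied before deposit. The table holds no detection calls. Precision is limited by the number of arrays. Values under 1 were set to 1 before log2 was taken. Symbols came from the array annotation and were updated through gene identifiers in RefSeq, with 9227 of 9304 matched and 2 changed. The array names no build, so no positions are given. The head and tail groups were tested with limma 3.58.1 under R 4.3.3 (lmFit and eBayes with a trend, two-sided, Benjamini-Hochberg, threshold 0.05) on all 8 arrays, leaving out probe sets under the 40th percentile of mean log2 signal, 7.86. Its steps were tested on simulated data. Python 3.11.15 did the rest.

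The members and gene lists were chosen with earlier results of these data known. Genes named are the 20 brightest symbols, the 20 of highest SD, the first 3 members of each list in each set (or its brightest), the 5 largest deviations up and down per single head, and 12 marker genes. A marker gene with several probe sets was read on the one with the highest head mean. The sets aldoa.S, parp1.L, sec13.S, prmt1.S, psmd6.L and the second probe sets were named outside this rule, after their values were seen. The labels do not state that equal numbers mark pairs, so the numbers were not taken as pairs. Deviations of same-numbered head and tail arrays from their group means correlated at 0.23, 0.03 and 0.02 for replicates 1 to 3. The correlation was 0.60 for the pools, so the head pool and the tail pool deviated in like ways. Both pools are replicate 4, so number and pooling cannot be told apart. Shared variation between the other same-numbered arrays is not excluded. The limma test took pools and single embryos as replicates of 1 kind.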

Additional observations from a re-analysis of the deposited data

Results flagged for a closer look

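Of 154 groups of 4 arrays examined for the genes named above, 11 held an array whose gap to the nearest other array exceeded Dixon's critical value as a share of the range of the group. Chance flags about 5% of groups, but many of these genes were named for a high SD or a large deviation in 1 single head, so that rate does not apply to their head groups. Tail replicate 1 held 4 of the 11, and head replicate 1, the head pool and the tail pool 2 each.

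Among heads, cirbp.L measured 15.75 in the pool and 15.60 in each single head. The keratin krt8.1.S measured 14.30 in head replicate 2 against at least 14.80 in the others. The aldolase aldoa.L measured 12.27 in head replicate 1 against at least 14.06. The myosin gene myh8.L measured 8.96 in head replicate 1 against at least 11.04. The notochord gene tbxt.S measured 8.02 in the pool against at most 7.57.

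Among tails, replicate 1 stood apart for aldoa.L, at 12.31 against at least 13.52, and for the probe set annotated polr2i.S, at 9.47 against at least 14.42. It was high for myl4.S, at 10.49 against at most 9.35, and for tubb2b.S, at 11.44 against at most 10.94. The tail pool was high for sfxn2.S, at 11.12 against at most 9.55, and for fam3a.L, at 11.40 against at most 8.04.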

How the results depend on the processing

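Of the 300 abundant probe sets, 285 to 299 were also among the 300 highest under each alternative, and 285 to 289 when 1 head was left out. Of the 100 variable probe sets, 51 were shared at a minimum signal of 250, 49 at 1000, and 28 to 82 when 1 single head was left out, with the fewest without head replicate 1. Head replicate 1 was the lone head in 72 under quantile normalization and under median centring too. The calls among the 300 went from 5 to 22 with array weights, and were 3 to 6 with an array left out. The calls among the 100 were 1 on the single-embryo arrays only, 21 with array weights, and 0 to 18 when 1 array was left out. Over all probe sets tested, 429 calls became 273 with a filter at the 60th percentile, 212 on single-embryo arrays only, 1223 with array weights, and 211 to 508 when 1 array was left out. With the replicate number as a block there were 635 calls, of which 7 were among the 300 and 9 among the 100, and myl4.S was no longer called (adjusted p = 0.0598). A gap of 2 log2 units in place of 3 gave 24 probe sets with heads on both sides. The cause of these changes was not tested. Alternatives were run for the head against tail difference of the 15 named genes that had been called on these same arrays. None of the 15 changed direction, which that choice made likely beforehand, so nothing is read from it. Under some alternatives 6 of the 15 missed the threshold. Under 3 other scalings, chosen after seeing the data, the 33 list counts stayed within 1.5 times the count given. Without head replicate 1 such a count cannot fall, since the highest of 3 heads is also the higher of 2. It was then 75 of 87 for ribosomal proteins, 58 of 73 for respiratory chain, 38 of 54 for proteasome and 16 of 24 for neural genes, against 52.0% of bright probe sets, and 25 of 36 for muscle genes, against 48.0%. Dim signals are less reliable in log2, and 7 of the 100 had a single head under the 20th percentile.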
